A study of Arabidopsis thaliana with 20 samples.

Results

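Protein occupancy of the plastid genome was compared between ptac3 and Col0 seedlings of Arabidopsis thaliana in 12 of the 20 libraries of the series. The members were chosen by title: seedling libraries named for Col0 or for pTAC3, input or IPOD, with 3 libraries in each of 4 groups. The other 8 libraries came from leaves and were not used. IPOD (in vivo protein occupancy display) recovers crosslinked DNA that carries protein, of any kind, and input is the DNA before that separation.

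All 12 libraries came from untreated seedlings, 4 days old by title and at most 5 days old by another label entry. The seedlings were harvested in pools on plates in continuous light and crosslinked with 4% formaldehyde for 4 h before the plastids were enriched. Col0 is the wild type accession. The ptac3 seedlings carry a mutation of PTAC3, for which the labels give no allele, no second line and no complemented line. The ptac3 libraries carry a genotype entry of wild type beside a cell line entry of ptac3. Col0 IPOD library 3 has a Col0 title and a ptac3 cell line entry, and it was kept with Col0. PTAC3 is a nuclear gene, so its state could not be read from plastid depth. The labels do not say that libraries of 1 group came from separate cultures, so the tests measure the spread between these libraries, which may be technical.

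Plastid DNA is packed with protein into nucleoids, and its genes are read by 2 kinds of RNA polymerase. The plastid-encoded polymerase has a bacterial-type core, encoded by rpoA, rpoB, rpoC1 and rpoC2 on the plastid genome, to which nuclear-encoded associated proteins bind. It transcribes chiefly photosynthesis genes, the rRNA operon and most tRNA genes. The nuclear-encoded phage-type polymerases transcribe the rpoB operon, accD and other housekeeping genes. PTAC3 is 1 of the associated proteins, found in the transcriptionally active chromosome of plastids, and Arabidopsis mutants that lack it are albino. The mutation and the altered plastids of such plants cannot be told apart here.

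Depth, the number of reads over a base, averaged 99.3 to 402 per library outside the second copy of the inverted repeat. Between replicates of 1 group, Pearson's r of log2 depth over bins was 0.930 to 0.979. It was lowest in ptac3 IPOD, at 0.930 to 0.966. The repeat holds the rRNA operon, and its share of depth was 32.3% to 35.5% in Col0 input, 35.9% to 37.5% in Col0 IPOD, 27.9% to 35.5% in ptac3 input and 26.7% to 33.8% in ptac3 IPOD. In both ptac3 groups library 1 was the highest, and its part in the results was not tested beyond leaving it out.

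Each value below is depth over a gene, window or bin divided by the mean of the library, called scaled depth. The ratio is the log2 of IPOD over input, and a pair is an IPOD library and the input library that carries its number. Ratios of single libraries, their SDs and the counts of ratios that do not overlap use these pairs. The limma tests do not, since they compare group means. The difference is the ratio in ptac3 minus the ratio in Col0, on the log2 scale, so a negative value means less recovery with protein in ptac3. Because each library is set to its own mean, a gene can be lower or higher only relative to the rest of the plastid genome. In a pool of seedlings, fewer occupied genome copies and less protein on each copy cannot be told apart.

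The gene-level difference lay at tRNA genes. Of 111 genes, limma called 3 lower in ptac3 at an adjusted p under 0.05, a background of 2.70%, and 0 higher, a background of 0.00%. The 3 were trnQ, trnT and trnM, which encode the tRNAs for glutamine, threonine and methionine. At an unadjusted p under 0.05, 8 genes were lower and 8 higher, 7.21% of the genes each. The 8 lower genes were all tRNA genes and the 8 higher genes all protein-coding. With each library centred on its median bin, these unadjusted counts became 13 lower and 0 higher.

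The trnQ gene had the largest difference. Its scaled depth in Col0 libraries 1 to 3 was 2.37, 1.99 and 2.08 in input and 4.74, 4.59 and 3.13 in IPOD. In ptac3 it was 1.85, 1.59 and 1.65 in input and 1.78, 1.56 and 1.37 in IPOD. Every Col0 IPOD library was above every other library at this gene, while the IPOD and input libraries of ptac3 overlapped. The ratio was 0.90 ± 0.30 (SD, n = 3) in Col0 and -0.11 ± 0.12 in ptac3, with a difference of -1.01 (SE 0.20, limma, adjusted p = 0.0214). The ptac3 ratio was 0.497 times that of Col0 on a linear scale. Taken alone, IPOD was lower in ptac3 by a log2 difference of -1.33 and input by -0.32.

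The trnT gene lies between trnE and psbD. Its scaled depth in Col0 was 0.927, 0.915 and 0.913 in input and 1.54, 1.76 and 1.39 in IPOD. In ptac3 it was 0.847, 0.830 and 0.792 in input and 0.901, 0.858 and 0.719 in IPOD. The 3 Col0 IPOD libraries were again apart from the other 9. The ratio was 0.71 ± 0.16 (SD, n = 3) in Col0 and 0.0049 ± 0.11 in ptac3, a difference of -0.70 (SE 0.13, limma, adjusted p = 0.0162).

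The trnM gene was different in its input. Scaled depth in Col0 was 0.545, 0.531 and 0.611 in input and 0.898, 1.10 and 0.937 in IPOD. In ptac3 it was 0.583, 0.707 and 0.728 in input and 0.596, 0.739 and 0.683 in IPOD. Col0 IPOD was above the other libraries here too, but ptac3 input was above Col0 input on average. The log2 difference between genotypes was -0.47 in IPOD and 0.23 in input, and that of the ratio was -0.70 (SE 0.15, limma, adjusted p = 0.0240). The ratio fell from 0.71 ± 0.20 (SD, n = 3) in Col0 to 0.0074 ± 0.070 in ptac3.

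These 3 calls rest on few libraries. The adjusted p was 0.0534 for trnQ and for trnT and 0.0622 for trnM without Col0 input library 2, so that limma called no gene there, though 8 lower and 5 higher genes had an unadjusted p below 0.05. For trnQ it was also 0.0736 without Col0 IPOD library 2, 0.0539 without ptac3 input library 3 and 0.0592 with centred libraries. For trnM it was also 0.0587 without Col0 input library 1, 0.0736 without Col0 IPOD library 2, 0.0663 and 0.0777 without ptac3 input library 2 or 3, 0.0629 with the library mean over all positions and 0.0749 with the pseudocount at 50% of the median bin. Without Col0 IPOD library 3, whose labels disagree, 7 genes were called lower, the 3 among them, and without ptac3 IPOD library 1 there were 8 lower and 1 higher.

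**Figure D1:**
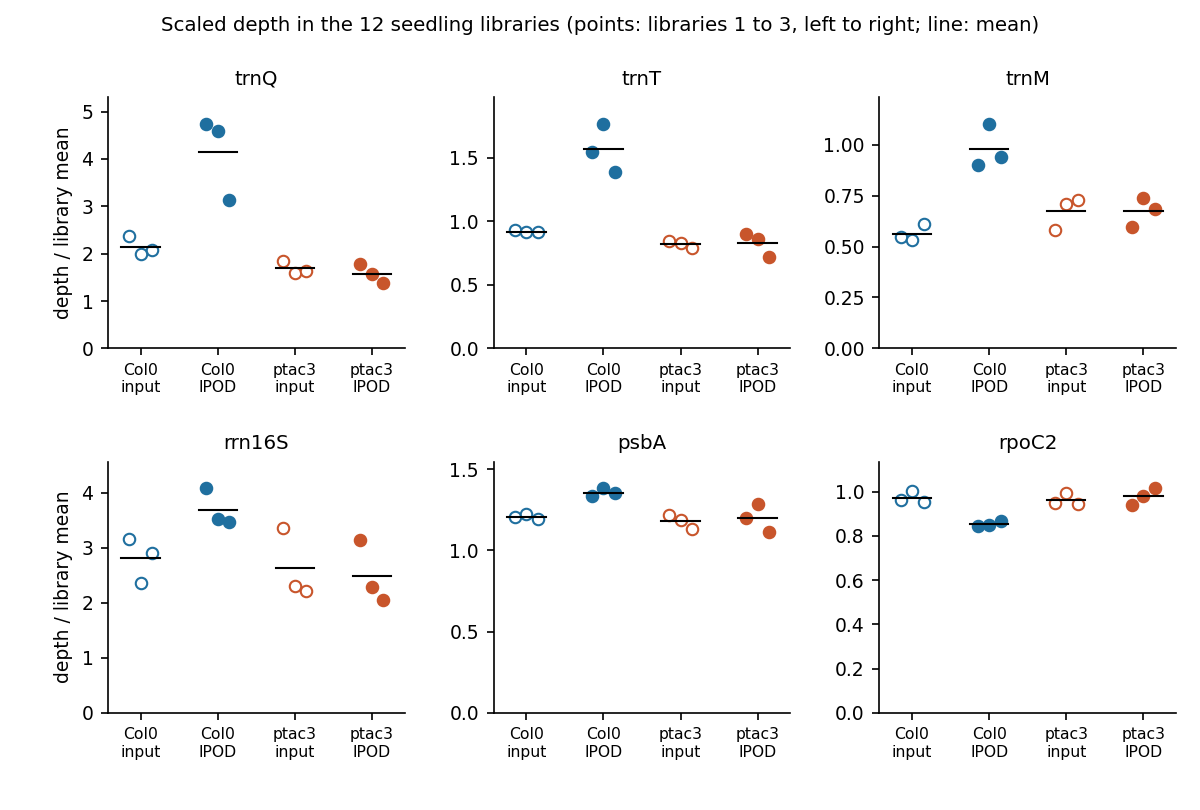
Scaled depth (depth divided by the library mean, no unit, axes from 0) of 6 genes in the 12 seedling libraries, with open points for input, filled points for IPOD and a line at the mean of each group. In trnQ, trnT and trnM the 3 Col0 IPOD libraries lie above the rest, in rrn16S library 1 of ptac3 is high in both fractions, and in rpoC2 Col0 IPOD is the lowest group.

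The 3 called genes belong to a list of 30 tRNA genes, of which the other 27 did not pass the adjusted threshold. Plastid tRNAs are also needed to decode plastid messages, and the tRNA for glutamate serves as a precursor of chlorophyll and haem. Of 30 tRNA genes, 29 had a difference below 0, with a range of -1.01 to 0.0024 and a median of -0.27, where the median of all 111 genes was 0.088. With centred libraries these medians were -0.39 and -0.039, and 30 of 30 tRNA genes were below 0. Their number below 0 was 26 with the library mean over all positions and 26 with the trend with input depth removed, where the median was -0.15. By limma, 3 of the 30 passed the adjusted threshold and 8 the unadjusted one, all lower. The ptac3 ratios lay below all Col0 ratios in 17 of the 30, against 21 of all 111 genes, a background of 18.9%, and above them in 0.

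In Col0 the median ratio of the tRNA genes was 0.23, 0.33 and 0.16 in libraries 1 to 3, and in ptac3 it was -0.013, -0.045 and -0.11. Libraries labelled Col0 were thus above those labelled ptac3, the third Col0 pair being the lowest of the 3. The share of all depth that fell in tRNA bins was 7.52% to 8.33% in Col0 input, 9.17% to 10.3% in Col0 IPOD, 6.92% to 8.36% in ptac3 input and 6.48% to 8.14% in ptac3 IPOD. The Col0 IPOD libraries did not overlap any other group in this share. The median log2 difference between genotypes over the list was -0.34 in IPOD and -0.062 in input.

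Below the called genes came 2 tRNA genes with a difference as large or larger. The trnL gene of the short single-copy region (locus tag Arthct122) had a scaled depth of 2.18, 1.57 and 1.63 in Col0 input, 4.09, 3.48 and 2.46 in Col0 IPOD, 1.71, 1.47 and 1.79 in ptac3 input and 1.85, 1.33 and 1.33 in ptac3 IPOD. Its ratio was 0.85 ± 0.27 (SD, n = 3) in Col0 and -0.14 ± 0.25 in ptac3. Groups did not overlap, yet the difference of -0.996 (SE 0.26) was not called by limma, with an adjusted p of 0.0631. The gene was called, at 0.0445, 0.00923 and 0.0274, without Col0 input library 1, Col0 IPOD library 3 or ptac3 IPOD library 1.

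The trnP gene, for the proline tRNA, gave the other. Its scaled depth was 2.22, 1.88 and 1.85 in Col0 input, 3.90, 3.59 and 2.52 in Col0 IPOD, 1.82, 1.78 and 1.66 in ptac3 input and 1.98, 1.82 and 1.32 in ptac3 IPOD. Only Col0 IPOD stood apart. The difference was -0.76 (SE 0.23, limma, adjusted p = 0.109), and it was called, at 0.0136 and 0.0454, without Col0 IPOD library 3 or ptac3 IPOD library 1.

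A pair of tRNA genes had smaller differences at an unadjusted p under 0.05. For trnG (ArthCt116) the ratio was 0.76, 0.82 and 0.52 in Col0 and 0.30, 0.20 and 0.06 in ptac3, with a difference of -0.52 (SE 0.14, limma, adjusted p = 0.0631). This gene kept IPOD above input in each ptac3 pair. For trnS (ArthCt117) the ratio was 0.35, 0.19 and 0.21 in Col0 and -0.01, -0.29 and -0.26 in ptac3, with a difference of -0.44 (SE 0.12, limma, adjusted p = 0.0631). With centred libraries it was -0.57, with an adjusted p of 0.0353. Both genes were called without Col0 IPOD library 3, at 0.0315 and 0.0434, and without ptac3 IPOD library 1, at 0.0274 and 0.0454, and trnS (ArthCt117) also without ptac3 input library 1, at 0.0378. The eighth lower gene at an unadjusted p under 0.05 was trnI (ArthCt113) in the repeat, at -0.27.

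The next tRNA genes differed in the same sense with a wider error. The difference was -0.50 (SE 0.28) for trnE, which encodes the glutamate tRNA, -0.45 (SE 0.24) for trnA inside the rRNA operon and -0.40 (SE 0.22) for trnfM, the initiator tRNA. None was called by limma, each with an adjusted p of 0.346. The ptac3 ratios lay below the Col0 ratios in all of these. Without ptac3 input library 1 trnA was at -0.28. Without ptac3 IPOD library 1 the difference of trnE was -0.76, with an adjusted p of 0.0454. With the trend with Col0 input depth removed the 3 were at -0.10, -0.030 and -0.047, while trnQ, trnT, trnM and trnL (Arthct122) were at -0.71, -0.79, -0.79 and -0.80 and each was called. At that setting trnP was at -0.50 and was not called (limma, adjusted p = 0.0791). Scaled depth in Col0 input averaged 2.70, 2.85 and 2.41 for trnE, trnA and trnfM, and 2.15, 0.918, 0.563 and 1.79 for trnQ, trnT, trnM and trnL (Arthct122). The trend was fitted over the genes themselves, and no protein-coding gene reached the depths of trnE, trnA and trnfM, nor that of trnQ. Input depth and class of gene therefore cannot be told apart at these depths, and the part of either was not tested.

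Not every tRNA gene was enriched with protein in Col0. The ratio was -0.15 for trnW in Col0, -0.12 for trnR (ArthCt093) and -0.0072 for trnD, and the 3 lay at -0.17, -0.11 and -0.021 in ptac3. Their genotype differences were between -0.019 and 0.0024. With the trend with input depth removed, trnD was at 0.39 (limma, adjusted p = 0.0234) and so called higher. Its scaled depth in Col0 input averaged 2.72, in a range that only tRNA and rRNA genes reached. The 24 tRNA genes under 100 bp had a median difference of -0.28 and the 6 with an intron one of -0.20. In the repeat the 5 short tRNA genes ran from -0.30 to -0.21, and the 19 short single-copy ones from -1.01 to 0.0024.

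Short protein-coding genes had another median than the short tRNA genes. The 14 protein-coding genes under 150 bp had a median difference of 0.10. Of them 0 had ptac3 ratios below the Col0 ratios, against 18.9% of all genes but only 1 of the 78 protein-coding ones. Their range was -0.032 to 0.29, and their median was -0.024 with centred libraries, where that of the short tRNA genes was -0.41.

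**Figure D2:**
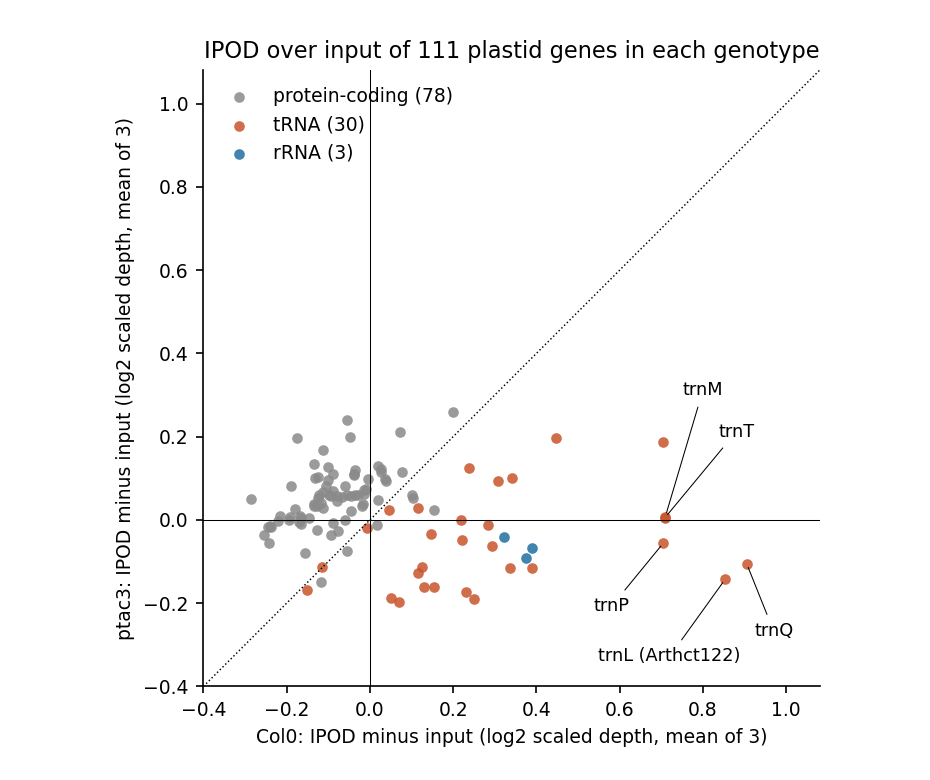
Ratio (log2 IPOD minus log2 input, mean of 3) of each of 111 genes in Col0 on the horizontal axis and in ptac3 on the vertical axis, with protein-coding genes in grey, tRNA genes in orange and rRNA genes in blue. Genes on the dotted line have equal ratios: 29 of 30 tRNA genes and 3 of 3 rRNA genes lie below it, and trnQ, at 0.90 in Col0 and -0.11 in ptac3, is farthest from it.

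Around the 24 short tRNA genes the ratio in Col0 formed a peak. Its median was 0.27 at the centre of the gene, 0.31 at 50 bp and 0.27 at 100 bp towards higher positions, and it fell to 0.093 at 200 bp and -0.056 at 250 bp. On the other side, over 23 of the 24 genes, it was 0.20 at 50 bp and 0.088 at 100 bp. The strand of the genes was not used here, so the sides do not stand for upstream and downstream.

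In ptac3 the median at the centre was -0.10, and at 50 bp and 100 bp towards higher positions it was 0.0061 and 0.012. Each of these was below the Col0 median at the same distance. The median difference was -0.27 at the centre, -0.31 at 50 bp and -0.22 at 100 bp towards higher positions, and -0.24 and -0.043 at 50 bp and 100 bp on the other side. At 300 bp it was 0.029 on the high side and 0.062 on the other. In all 3 pairs the Col0 median at the centre, 0.25, 0.35 and 0.21, was above those of ptac3, at -0.0077, -0.065 and -0.14.

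The called genes differed in the position of the dip. For trnQ the difference was -1.01 at the centre and -0.82 at 100 bp towards higher positions, with -0.043 at 100 bp on the other side. For trnM it was -0.69 at the centre, -0.96 at 50 bp and -0.83 at 250 bp towards lower positions, and 0.30 at 100 bp towards higher positions. The value at 250 bp falls at trnV (ArthCt103), where bins 51751 to 51900 had a mean difference of -0.70. From the centre of trnM to 250 bp towards lower positions the difference was nowhere above -0.53, the value at 150 bp. The profile thus does not separate the dip of trnM from that of trnV. At trnQ the dip reached forward. For trnT it was -0.73 at the centre, with -0.37 and -0.43 at 100 bp on the high and low sides.

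**Figure D3:**
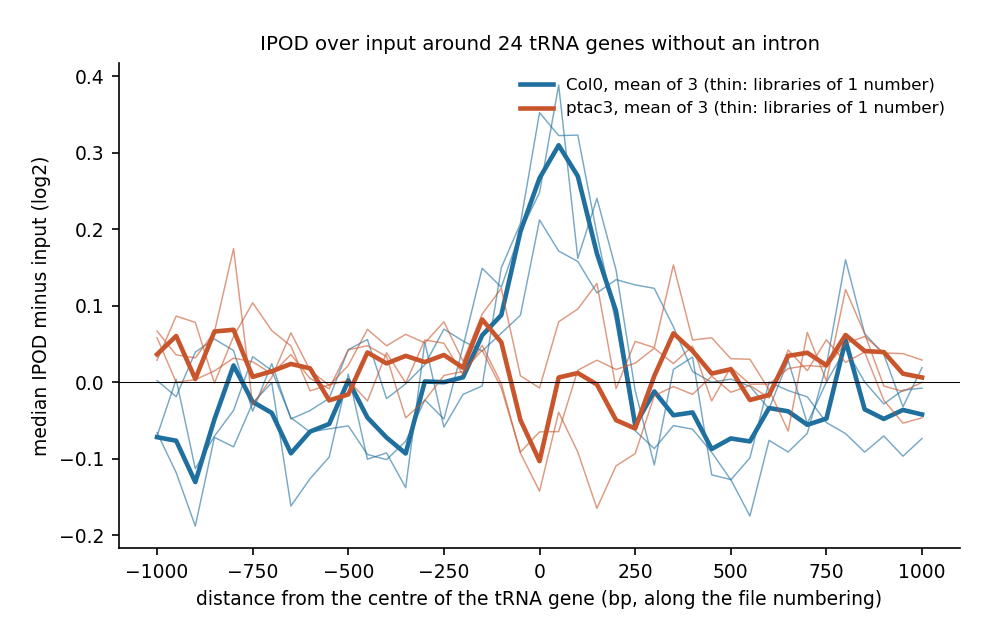
Median ratio (log2 IPOD minus log2 input) over 24 tRNA genes under 100 bp against distance from the gene's centre in bp, along the numbering of the genome. Thick lines are means of 3 and thin lines the pairs of libraries of 1 number: Col0 peaks at 0.31, 50 bp from the centre, and ptac3 is at 0.0061 there.

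Of the genes tested, the rRNA operon in the repeat holds rrn16S, trnI, trnA, rrn23S and rrn4.5S, and its rRNAs are part of the plastid ribosome. All 3 rRNA genes tested had ptac3 ratios below the Col0 ratios, where 18.9% of all genes did, and none passed either threshold in the main limma fit. The median difference was -0.46, and -0.58 with centred libraries, but -0.028 with the trend of each library with Col0 input depth removed. Mean scaled depth in Col0 input was 3.14 for rrn23S, 2.81 for rrn16S and 2.29 for rrn4.5S. No protein-coding gene tested reached these depths, so input level and class of gene cannot be told apart there. The part of input level in the rRNA result was not tested further. The median ratio in libraries 1 to 3 was 0.36, 0.52 and 0.25 in Col0 and -0.061, -0.038 and -0.10 in ptac3.

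For rrn16S, the RNA of the small ribosomal subunit, scaled depth was 3.15, 2.36 and 2.90 in Col0 input and 4.07, 3.52 and 3.47 in Col0 IPOD. In ptac3 it was 3.36, 2.30 and 2.22 in input and 3.14, 2.28 and 2.05 in IPOD. Library 1 of ptac3 was high in both fractions, so the levels overlapped across groups while the ratios did not. The difference of the ratio was -0.46 (SE 0.25, limma, adjusted p = 0.346). Leaving out 1 library moved it between -0.63 and -0.27, and removing the input trend moved it to -0.042.

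For rrn23S, the RNA of the large subunit, the ratio was 0.34, 0.52 and 0.26 in Col0 and -0.06, -0.04 and -0.18 in ptac3. The difference was -0.47 (SE 0.27, limma, adjusted p = 0.346), with a range of -0.67 to -0.28 over the fits without 1 library and -0.014 with the input trend removed. For rrn4.5S it was -0.36 (SE 0.23). The share of depth in rRNA bins was 12.7% to 14.7% in Col0 IPOD, 8.66% to 11.4% in Col0 input, 7.77% to 12.01% in ptac3 input and 6.97% to 11.4% in ptac3 IPOD. Only Col0 IPOD did not overlap the others.

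Protein-coding genes lay on the other side of 0, by smaller amounts. Of 78, limma called 0 in either direction at an adjusted p under 0.05, and 0 lower and 8 higher at an unadjusted one. Their median difference was 0.15. Scaling decides the sign of many: with centred libraries the median was 0.024, and 33 of 78 were below 0 against 6 before. In 34 of the 78 the ptac3 ratios lay above all Col0 ratios, where the share over all 111 genes is 30.6%, and in 1, psbA, below them. The median ratio in libraries 1 to 3 was -0.073, -0.14 and -0.057 in Col0 and 0.056, 0.038 and 0.058 in ptac3.

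Photosystem II genes encode the complex that splits water. The 15 members had a median difference of 0.14, and 1 of them, psbZ for a small subunit, had an unadjusted p under 0.05. Its scaled depth was 1.04, 1.06 and 0.946 in Col0 input, 0.911, 0.924 and 0.849 in Col0 IPOD, 1.06, 0.966 and 1.07 in ptac3 input and 1.07, 1.20 and 1.32 in ptac3 IPOD. Col0 IPOD was the lowest group and ptac3 IPOD reached highest. The difference of 0.37 (SE 0.12, limma, adjusted p = 0.109) was the highest of all genes. It was 0.24 with centred libraries, and 0.45 with an adjusted p of 0.0274 without ptac3 IPOD library 1.

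The psbA gene encodes the D1 protein of photosystem II and was the protein-coding gene whose ptac3 ratios lay below those of Col0. Scaled depth was 1.21, 1.22 and 1.19 in Col0 input, 1.33, 1.38 and 1.35 in Col0 IPOD, 1.22, 1.19 and 1.13 in ptac3 input and 1.20, 1.28 and 1.11 in ptac3 IPOD. The difference was -0.13 with a 95% interval of -0.32 to 0.06, and the limma adjusted p was 0.358. With centred libraries it was -0.26, with an adjusted p of 0.507. For psbD, encoding D2, the difference was 0.14, and for psbB, encoding the antenna protein CP47, it was 0.15. Without Col0 input library 2 psbD was at 0.074, and without ptac3 input library 3 psbB was at 0.075.

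Photosystem I had a median of 0.14 over 7 genes. The ptac3 ratios of 5 lay above the Col0 ratios, where 30.6% of all genes and 34 of the 78 protein-coding ones did. For psaC, the iron-sulfur subunit, the ratio was -0.28, -0.23 and -0.20 in Col0 and -0.13, -0.04 and 0.11 in ptac3, a difference of 0.22 (limma, adjusted p = 0.243). For psaA, encoding a core subunit, it was 0.14, and for psaJ, a small subunit, 0.29, or 0.19 without ptac3 input library 1. In psaC the genotypes differed by -0.14 in input and 0.083 in IPOD, while psaA and psaJ differed more in IPOD. With centred libraries the medians of photosystem I and II were 0.014 and 0.010.

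The other photosynthetic complexes showed values of the same size. The median difference was 0.061 over 7 genes of cytochrome b6f and its assembly, 0.16 over 6 ATP synthase genes and 0.15 over 11 NDH genes, which encode the NAD(P)H dehydrogenase-like complex. With centred libraries these medians were -0.066, 0.030 and 0.022, so that the sign of the first depends on the scaling. In the NDH list the ptac3 ratios of 7 of 11 lay above those of Col0, against 30.6% of all genes and 34 of the 78 protein-coding ones. The difference was 0.22 for ndhB (limma, adjusted p = 0.261), 0.27 for ndhG, 0.23 for petB (cytochrome b6), 0.25 for petG and 0.16 for atpB. In ndhB the genotypes differed by -0.12 in input and 0.096 in IPOD, while the others named here differed more in IPOD. Without ptac3 input library 1 petG was at 0.089 and petB at 0.14, and petG was at 0.39 without Col0 IPOD library 3. Without Col0 IPOD library 1 atpB was at 0.085. None of these lists held a gene called by limma. The rbcL gene, for the large subunit of Rubisco, was at -0.029 with a 95% interval of -0.30 to 0.25.

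The genes of the plastid-encoded polymerase itself had positive differences, none of them called. All 4 lay between 0.17 and 0.21, and 2 of the 4 had an unadjusted p under 0.05, where 7.21% of all genes were higher at that threshold. For rpoC2 scaled depth was 0.963, 1.00 and 0.953 in Col0 input, 0.846, 0.847 and 0.869 in Col0 IPOD, 0.948, 0.992 and 0.944 in ptac3 input and 0.939, 0.982 and 1.01 in ptac3 IPOD. The 3 Col0 IPOD libraries lay below the other 9. The difference was 0.21 (SE 0.08, limma, adjusted p = 0.243) and 0.079 with centred libraries.

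For rpoB, encoding the beta subunit, the difference was 0.17 (limma, adjusted p = 0.342). The list of 5 genes known to be read chiefly by the nuclear-encoded polymerase (accD, rpoB, rpoC1, rpoC2 and ycf2) had a median of 0.19. Of the 5, 3 were higher at an unadjusted p under 0.05, where 7.21% of all genes were. The ptac3 ratios of 4 lay above those of Col0, against 30.6% of all genes and 34 of the 78 protein-coding ones. With centred libraries the median was 0.067. The accD gene, for a subunit of acetyl-CoA carboxylase in fatty acid synthesis, was at 0.10, with a range of 0.035 to 0.20 over the fits without 1 library, and its sign turned with centred libraries.

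Ribosomal protein genes numbered 21, with a median of 0.15 and 2 at an unadjusted p under 0.05. The difference was 0.28 for rpl23 and 0.22 for rpl2, each with an adjusted p of 0.238 in limma, 0.34 for rpl32 and 0.27 for rps15. Without ptac3 input library 1 the last pair were at 0.21 and 0.17. In rpl32 the genotypes differed in input, by a log2 difference of -0.31, more than in IPOD, at 0.027. The same held for rpl2, at -0.14 and 0.082, while rpl23 and rps15 differed more in IPOD, by 0.33 and 0.31. The ptac3 ratios lay above those of Col0 in 10 of the 21, against 30.6% of all genes and 34 of the 78 protein-coding ones. The median with centred libraries was 0.025.

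The remaining protein genes had a median of 0.17 over 6. The difference was 0.23 for ycf2 (limma, adjusted p = 0.238), which encodes part of the motor for protein import in Arabidopsis, and 0.22 for ycf1, which encodes a subunit of the import channel and was at 0.12 without ptac3 IPOD library 3 and 0.13 without ptac3 input library 1. It was 0.18 for clpP, the protease subunit, and -0.052 for matK, an intron maturase. In ycf2 the genotypes differed by -0.12 in input and 0.11 in IPOD, and in ycf1 by 0.031 and 0.26. With centred libraries ycf2 and ycf1 were both near 0.10.

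**Figure D4:**
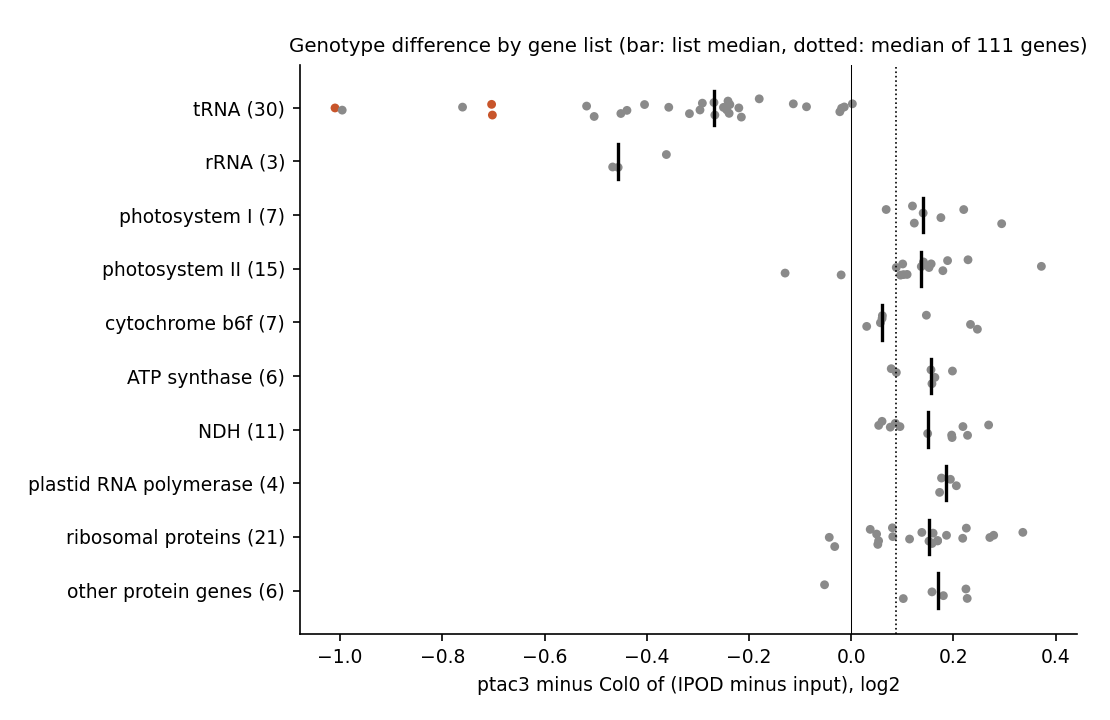
Genotype difference (ptac3 minus Col0 of log2 IPOD minus log2 input) of each gene by list, with the list median as a bar, the median of 111 genes (0.088) as a dotted line and the 3 genes called by limma in orange. The tRNA and rRNA lists have medians of -0.27 and -0.46, and the lists of protein-coding genes other than rbcL have medians from 0.061 to 0.19, or from -0.066 to 0.058 with centred libraries.

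Windows of 250 bp on both sides of each gene were tested in the same way. Of 220 windows limma called 3 lower in ptac3, a background of 1.36%, and 0 higher, a background of 0.00%. Unadjusted, 20 windows (9.09%) were lower and 9 (4.09%) higher, and 36 and 0 after centring. The ptac3 ratios lay below those of Col0 in 40 windows (18.2%) and above them in 39 (17.7%). One was the window on the high side of trnL (ArthCt101), facing trnF. Scaled depth there was 0.663, 0.647 and 0.626 in Col0 input, 1.43, 1.45 and 1.13 in Col0 IPOD, 0.513, 0.576 and 0.729 in ptac3 input and 0.525, 0.596 and 0.687 in ptac3 IPOD. Col0 IPOD stood apart from the rest. The ratio was 0.95 ± 0.15 (SD, n = 3) in Col0 and 0.0054 ± 0.062 in ptac3, a difference of -0.95 (SE 0.19, limma, adjusted p = 0.0169). The trnL gene itself, intron included, was at -0.087.

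The other called windows were the high side of trnV (Arthct121) and the low side of rrn16S, which cover nearly the same interval ahead of the rRNA operon. Scaled depth in the window beside rrn16S was 1.27, 1.28 and 1.42 in Col0 input, 2.99, 2.92 and 2.23 in Col0 IPOD, 1.21, 1.17 and 1.05 in ptac3 input and 1.34, 1.32 and 1.24 in ptac3 IPOD. Here too Col0 IPOD was above all others, and ptac3 kept IPOD above input in each pair, at 0.15, 0.16 and 0.22. The difference was -0.80 (SE 0.16, limma, adjusted p = 0.0169), and -0.81 from the side of trnV. This is larger than the -0.46 over rrn16S itself, and that contrast between window and gene was not tested.

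The next window, on the low side of ccsA, holds trnL (Arthct122) and had a difference of -0.88 (limma, adjusted p = 0.0849). The highest windows were the high side of petL at 0.39, the low side of petG at 0.35, the high side of ndhB at 0.35 and the high side of rpoC2 at 0.35, and none was called. No window was called lower when Col0 input library 1 or 2, Col0 IPOD library 1 or 2, ptac3 input library 2 or ptac3 IPOD library 2 was left out, with adjusted p of 0.0534 to 0.0782 for the 3 windows and 15 to 17 lower windows at an unadjusted p under 0.05. The window of trnL (ArthCt101) was also at 0.0638 without Col0 input library 3 and at 0.0623 with the library mean over all positions. Without Col0 IPOD library 3, ptac3 input library 1 or ptac3 IPOD library 1 there were 6, 9 and 6 called.

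At the scale of 50 bp no single bin was called. Of 2564 bins limma called 0 lower and 0 higher, each a background of 0.00%. At an unadjusted p under 0.05 there were 95 lower, 3.71%, and 119 higher, 4.64%, and with centred libraries 169 and 29. With limma-trend and robust variances 37 bins were called lower and 9 higher. Without Col0 IPOD library 3 there were 10 lower and without ptac3 input library 1 there were 7. By class, 27 of 137 tRNA bins (19.7%) and 17 of 88 rRNA bins (19.3%) were lower at an unadjusted p under 0.05 and 0 higher. Of 1538 protein-coding bins 0 were lower and 94 higher, and of 801 intergenic bins 51 were lower and 25 higher. The ptac3 ratios lay below those of Col0 in 280 bins (10.9%) and above them in 510 (19.9%).

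Runs of at least 3 adjacent bins of 1 sign at an unadjusted p under 0.05 show where the difference sits. There were 16 lower runs of 150 to 500 bp and 7 higher runs of 150 to 450 bp. Of the lower runs 10 held tRNA bins, 4 others rRNA genes or their edge and 2 intergenic DNA alone. All 7 higher runs held protein-coding bins. The runs were picked by these values, so their means are a description with no test of their own. Positions are on TAIR10.

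The longest lower run, 47401 to 47900, began in trnL (ArthCt101) and reached towards trnF. Its mean ratio was 0.81, 0.85 and 0.64 in Col0 and 0.0034, 0.049 and 0.00023 in ptac3, a mean difference of -0.75. A second run at 46601 to 46800, before the same gene, had -0.70. Runs over trnQ at 6601 to 6800 and over trnL (Arthct122) at 114201 to 114400 had -0.86 and -0.84.

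In the repeat the run at 100801 to 101100 crossed the edge of rrn16S. Its ratio was 0.98, 1.03 and 0.57 in Col0 and 0.081, 0.14 and 0.18 in ptac3, a mean difference of -0.72. The run at 106301 to 106650 inside rrn23S had -0.68, and that at 104351 to 104600 over trnA had -0.65. Between rpoB and trnC, from 27101 to 27300 and with no gene of the table, the ratio was 0.73, 0.90 and 0.31 in Col0 and 0.085, -0.0015 and -0.28 in ptac3. That run had a mean difference of -0.71, and the genotypes differed by -0.40 in IPOD and by 0.31 in input.

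The higher runs were in long protein-coding genes where Col0 IPOD was below input. The first, 96851 to 97300 at the edge of ndhB, had ratios of -0.58, -0.35 and -0.42 in Col0 and 0.016, -0.057 and 0.022 in ptac3, a mean difference of 0.44. Here the genotypes differed in input by -0.25 and in IPOD by 0.19. Others were 126401 to 126700 in ycf1 at 0.39, 17751 to 18000 and 17551 to 17700 in rpoC2 at 0.42 and 0.47, 21101 to 21250 in rpoC1 at 0.49, and 88751 to 88900 and 87751 to 87900 in ycf2 at 0.56 and 0.35. In the run at 88751 to 88900 the genotypes overlapped, since Col0 pair 3 was at 0.039 and ptac3 pair 3 at 0.017. In the run at 17751 to 18000 the difference lay in input, at -0.43, and not in IPOD, at -0.012. The same held at 126401 to 126700, at -0.36 and 0.037, and at 87751 to 87900, at -0.33 and 0.026. In the rpoC1 run input and IPOD differed by like amounts, -0.25 and 0.25. At 17551 to 17700 and 88751 to 88900 IPOD differed more, by 0.37 and 0.45, against -0.093 and -0.10 in input.

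**Figure D5:**
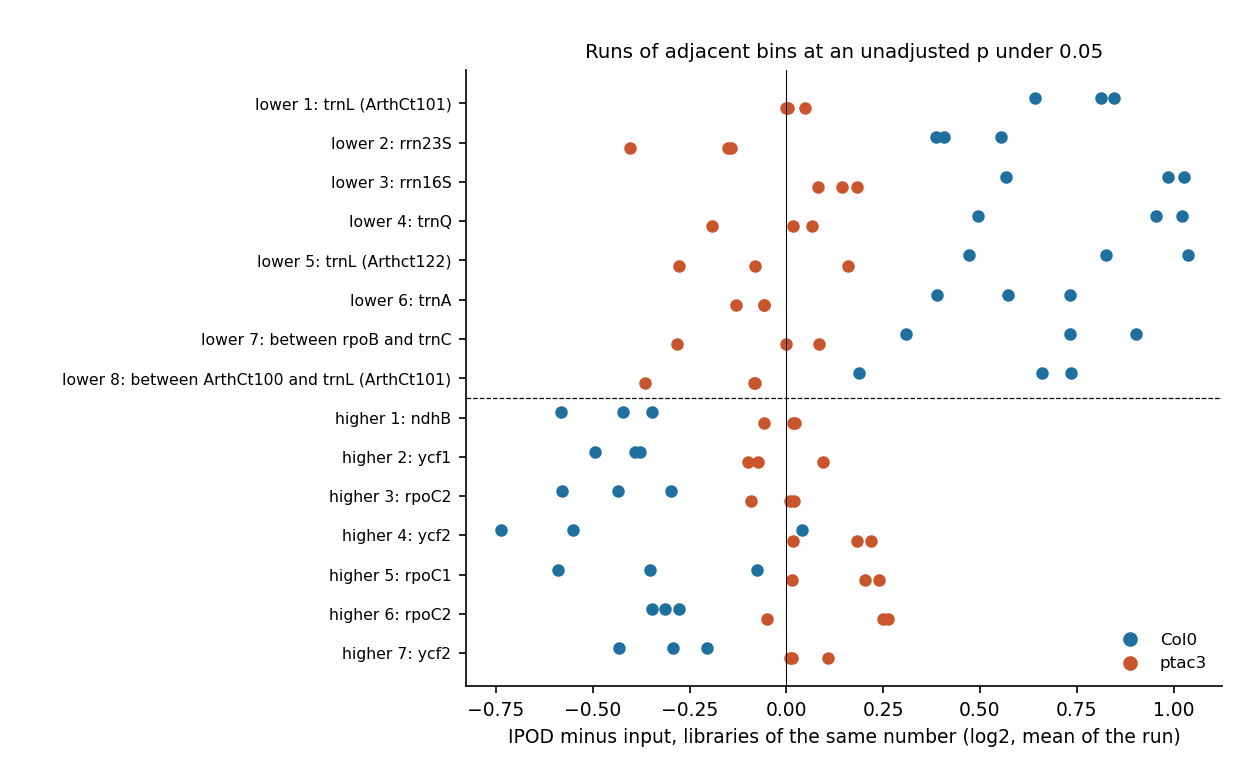
Mean ratio (log2 IPOD minus log2 input) of each pair of libraries in the 8 lower runs with the largest summed difference and in the 7 higher runs, named by their gene or neighbours, with Col0 in blue and ptac3 in orange. In the lower runs Col0 is above 0 and ptac3 near or below it, and in the higher runs Col0 is mostly below 0, with 1 overlap in the first ycf2 run.

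The spread of the IPOD profile over the genome was also compared. It is the SD over bins of each log2 IPOD library minus the mean log2 input of its genotype, and a flat profile gives a low value. It was 0.320, 0.260 and 0.239 in Col0 IPOD libraries 1 to 3 and 0.210, 0.158 and 0.257 in those of ptac3. The groups overlapped, since ptac3 library 3 lay above Col0 library 3. The means were 0.273 ± 0.042 (SD, n = 3) and 0.208 ± 0.050, a difference of -0.065 with an exact two-sided permutation p of 0.2, where 3 against 3 libraries cannot go below 0.1. Leaving out 1 library moved it between -0.089, without ptac3 IPOD library 3, and -0.029, without ptac3 input library 3. With each IPOD library set against its like-numbered input, not the mean, the groups did not overlap and the difference was -0.101 (exact permutation p = 0.1).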

How the data were processed

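The deposited file holds coverage, a whole number of reads at every plastid base, with no scaling and with 1 column for each library. Per the submitters' processing notes the tools were Trim Galore 0.4.1, Bowtie2 2.2.8.9 and bedtools 2.25.0 and the build TAIR10. How reads matching both repeat copies were placed is not given in the sources used here.

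Libraries were grouped by title. Genes came from RefSeq's TAIR10.1 table, whose numbering was checked against the files on the inverted repeat (11 of 11 genes present in both copies mirrored to the same sum), and the second copy was left out. Depth was averaged over 111 genes of at least 70 bp, 2564 bins of 50 bp and 220 flanks of 250 bp, divided by the library mean, and 10% of the library's median bin was added before log2, which shrinks low values. The 12 libraries were fitted with limma 3.58.1 (lmFit, eBayes, R 4.3.3) for (ptac3 IPOD minus ptac3 input) minus (Col0 IPOD minus Col0 input), two-sided, with Benjamini-Hochberg adjustment over all genes, bins or flanks and a threshold of 0.05. Overlapping reads make bases dependent, so no count model was used. The fit was tested on simulated data.

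Windows before each gene's start were planned, but the table gives no strand, so both sides were tested. The text names every called gene, the 12 lowest and 8 highest, and a fixed set of genes of each complex; others were chosen after their values were seen. Members and lists were chosen with earlier results of these data known. Alternatives were other scalings, pseudocounts, variance models, blocks, filters, widths and leaving out each library.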

Additional observations from a re-analysis of the deposited data

Results flagged for a closer look

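Each result here is a genotype difference of IPOD over input between ptac3 and Col0 seedlings that passed a test of the difference itself (limma, adjusted p under 0.05). Among genes these were trnQ at -1.01, trnT at -0.70 and trnM at -0.70. Among windows beside genes they were the high side of trnL (ArthCt101) at -0.95, the high side of trnV (Arthct121) at -0.81 and the low side of rrn16S at -0.80, the last pair covering nearly the same interval.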

How the results depend on the processing

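Of the named genes and windows, rbcL, accD, matK, trnD, trnW and trnR (ArthCt093) changed sign under at least 1 alternative, and of these trnD was called, at 0.39 with the trend with input depth removed. With centred libraries 7 bins and 8 windows were lower, with limma-trend and robust variances 37 bins, 7 genes and 10 windows were lower and 9, 1 and 1 higher, and with the trend with input depth removed 30 bins, 8 genes and 9 windows were lower and 5 genes higher. Bins of 200 bp gave 2 lower. Leaving out each of the 12 libraries gave 0 to 10 lower bins, 0 to 8 lower and 0 to 1 higher genes, and 0 to 9 lower windows. The called window beside trnV (Arthct121) had an adjusted p of 0.0858 at 100 bp. The causes were not tested.

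A replicate block of genotype and number gave 131 lower and 55 higher bins, 18 and 14 genes and 27 and 7 windows, and a replicate block of number alone 9 lower bins, 7 lower genes and 5 lower windows. The 3 called genes were among the calls of both, and the 3 rRNA genes among those of the first. The labels do not say what a number stands for. The main limma fit did not take the numbers as pairs, because 1 correlation was under 0.1. The ratios of single libraries, their SDs and the non-overlap counts did use like numbers, so they rest on another assumption than that fit. IPOD and input deviations of the same number correlated at 0.257, 0.221 and 0.023 in Col0 and 0.771, 0.228 and 0.750 in ptac3. Each library but Col0 number 3 correlated best with its own number. With the input of the same number the spread difference was -0.101 (exact permutation p = 0.1).

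Counting noise, read from the 2 repeat copies, was an SD of 0.079 to 0.148 per bin on the log2 scale, so single bins with smaller differences are beyond this depth.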
